A study of Mus musculus with 6 samples.

Results

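The Cacng genes encode the gamma subunits, a family of 4-pass membrane proteins related to the claudins that sit beside the pore of an ion channel. Cacng1 and Cacng6 are the gamma subunits of voltage-gated calcium channels, Cacng1 being the one found with the L-type channel of skeletal muscle. Cacng2 (stargazin), Cacng3, Cacng4 and Cacng8 are the type I, and Cacng5 and Cacng7 the type II, transmembrane AMPA receptor regulatory proteins (TARPs), which bring AMPA-type glutamate receptors to the synapse and tune their gating. In the brain the TARPs are known mainly from neurons, whereas the cells measured here were microglia, the resident macrophages of the brain.

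The 8 members, Cacng1 to Cacng8, were found by the accession each array probe carries, and every one was represented by 1 probe, so that the family took 8 of 56601 probes tested and 8 of 23462 named genes. The family was chosen by the signal of the Cacng1 probe in these same arrays, whose difference between the genotypes was known beforehand. The Cacng1 values are therefore a description and carry no test, whereas the other 7 genes were read from a fit across all probes. The Cacng1 values thus rest on 1 probe.

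The arrays compared microglia that lack the transcription factor Bhlhe41 with heterozygous controls. B41HET mice are Bhlhe41 dTomato-Cre/+ and B41KO mice are Bhlhe41 dTomato-Cre/dTomato-Cre, on a C57BL/6 background and at the age of 3 months. In this allele a cassette placed ahead of the start codon ends Bhlhe41 translation and puts dTomato and Cre under the Bhlhe41 promoter, so the controls also carry 1 copy of it and all 6 samples express dTomato and Cre. Live CD45lo Cx3cr1+ CD11b+ cells were sorted, and each sample was pooled from several mice. RNA of 3 B41HET and 3 B41KO samples was hybridised to 1-colour oligonucleotide arrays. The values below are log2 signals after quantile normalization over the 6 arrays, and a probe was called when its Benjamini-Hochberg adjusted p in limma was at most 0.05 and its difference at least 0.5 on the log2 scale.

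Between 39634 and 42710 probes were well above background per array, and no spot was saturated. All 12 microglial markers were well above background on all 6 arrays, and their summed log2 level was 17.50 to 17.61 in B41HET and 17.47 to 17.53 in B41KO. The Bhlhe41 transcript did not check the genotype labels. Its brighter probe read 7.95, 7.87 and 7.65 in B41HET and 8.56, 7.84 and 8.21 in B41KO, which overlap, with a difference of 0.38 (limma adjusted p = 0.330). The other probe read 7.86, 7.58 and 7.40 against 7.96, 7.90 and 7.96, all higher in B41KO, with a difference of 0.33 that was not called (limma adjusted p = 0.203). Over the whole array 2867 probes (5.07%) were called, 1.72% of probes higher and 3.34% lower in B41KO.

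Cacng1, the skeletal muscle calcium channel subunit, read 7.41, 7.55 and 7.58 in the 3 B41HET samples and 12.45, 12.48 and 12.42 in the 3 B41KO samples. The groups lay far apart, and the lowest B41KO sample was 4.84 log2 units above the highest B41HET sample. Mean log2 signal went from 7.51 ± 0.09 (SD, n = 3) to 12.45 ± 0.03 (SD, n = 3), a difference of 4.93, or 30.6-fold. The probe was well above background in all 6 samples, so it also gave a measurable signal in B41HET microglia. The same separation stood in the scanner intensities before any scaling between arrays, which were 188 to 216 in B41HET and 4732 to 5589 in B41KO over a local background of 17 to 19. Among named genes above background in all samples, each taken by its brightest probe, the next rises were those of the olfactory receptor genes Olfr1330 (2.28) and Olfr1338 (2.18). Ccnb1-ps and Zc2hc1b also ranked high, but they were not well above background in any B41HET sample, so their rises are not ranked here. In pooled sorted cells, more transcript per cell and more cells that hold the transcript cannot be told apart.

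**Figure D1:**
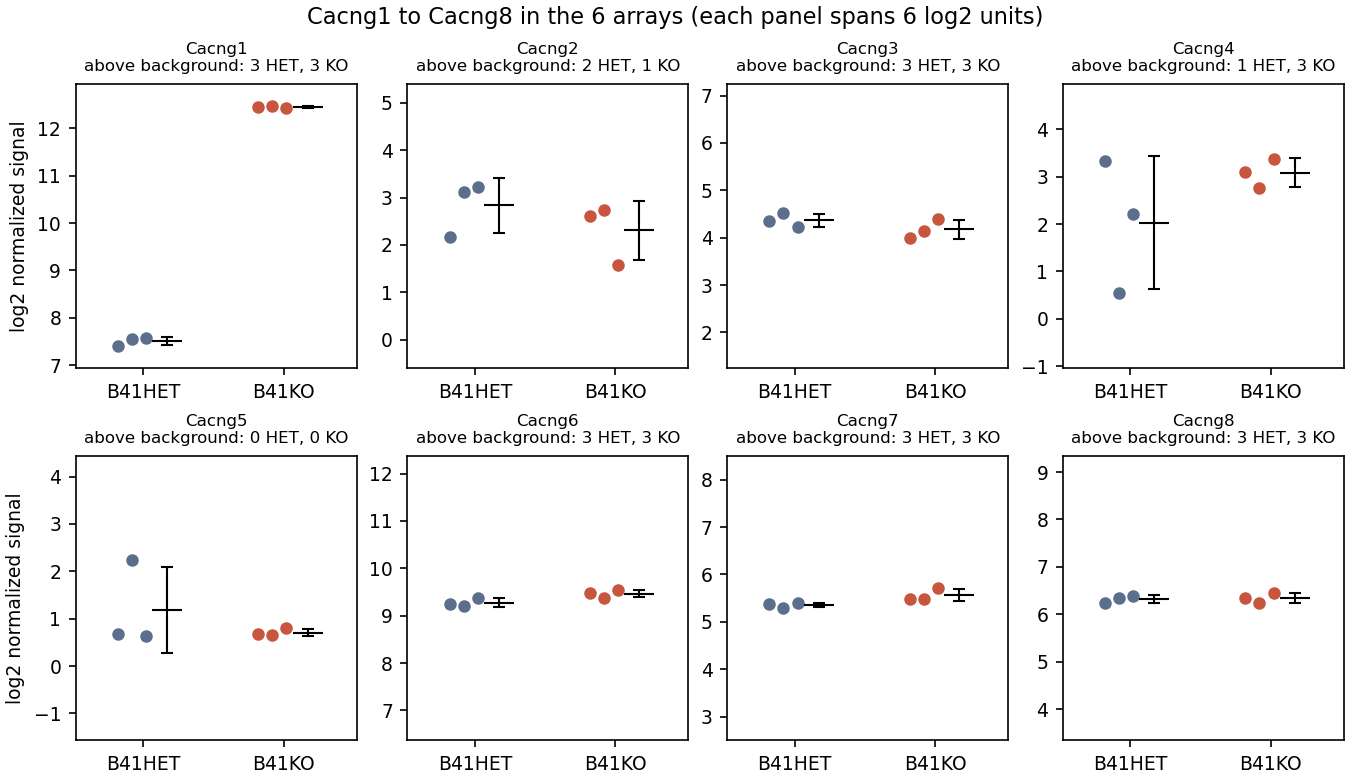
Log2 normalized signal (vertical axis) of the single probe of each Cacng gene in the 3 B41HET samples (blue) and the 3 B41KO samples (red), with the group mean and SD as black bars, each panel spanning 6 log2 units and giving the number of samples well above background. The Cacng1 samples fall into groups at 7.41 to 7.58 and 12.42 to 12.48, while the group means of the 4 other genes above background in all samples are at most 0.20 apart.

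None of the 7 paralogues was called, against 5.07% of all probes, and none reached an unadjusted p under 0.05 in limma. Of these 7 genes, 4 (Cacng3, Cacng6, Cacng7 and Cacng8) were well above background in all samples. Their differences ran from -0.19 to 0.20 on the log2 scale, and the 95% intervals of these 4 genes together spanned -0.52 to 0.42. The other 3 (Cacng2, Cacng4 and Cacng5) were above background in only some samples or in none, and their intervals were wider. The median difference of the paralogues was 0.020, beside 0.015 over all tested probes.

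Cacng6 is the closest relative of Cacng1 and, like it, a calcium channel gamma subunit. It read 9.24, 9.21 and 9.38 in B41HET and 9.47, 9.38 and 9.54 in B41KO. Every B41KO sample was above every B41HET sample, by a gap of only 0.004, an order shared by 14.5% of all probes. The difference was 0.19 (SE 0.08, 95% interval -0.02 to 0.39, limma adjusted p = 0.260), and the exact two-sided permutation test gave p = 0.1, the smallest that 3 against 3 samples allow. Its direction rested on the scaling between arrays. The unscaled scanner intensities were 659 to 685 in B41HET and 631 to 657 in B41KO, all lower in B41KO, and on that scale the difference was -0.065 (limma adjusted p = 0.820), beside a median of -0.11 over all probes.

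Cacng7, a type II TARP, showed the same order on the normalized scale. Its values were 5.37, 5.30 and 5.40 in B41HET and 5.49, 5.49 and 5.70 in B41KO. The groups did not overlap and were separated by 0.085, while the difference of 0.20 (SE 0.09, 95% interval -0.02 to 0.42) missed the threshold (limma adjusted p = 0.255; exact two-sided permutation p = 0.1). Non-overlap in either direction was found for 29.7% of all probes and here for 2 of the 7 paralogues. Without B41KO replicate 3 the Cacng7 difference was 0.13. Without scaling it was 0.057 and the intensities overlapped, at 40.7 to 44.3 in B41HET and 40.7 to 48.3 in B41KO.

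Of the type I TARPs, Cacng8 and Cacng3 were well above background in all samples. Cacng8 read 6.23, 6.35 and 6.39 in B41HET and 6.34, 6.24 and 6.45 in B41KO. The samples of both genotypes were interleaved, and the difference was 0.020 (95% interval -0.20 to 0.24, limma adjusted p = 0.924). Without scaling the difference turned to -0.15 (limma adjusted p = 0.562), and the intensities, 81.5 to 92.2 in B41HET and 73.3 to 80.1 in B41KO, were all lower in B41KO. Cacng3 gave 4.36, 4.51 and 4.22 in B41HET and 3.99, 4.15 and 4.39 in B41KO. Its groups overlapped, with a difference of -0.19 (95% interval -0.52 to 0.14, limma adjusted p = 0.481). It was -0.29 to -0.095 with 1 sample left out and -0.056 when arrays were aligned at the 75th percentile instead.

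The remaining TARP probes were dim. Stargazin (Cacng2), the founding TARP, was well above background in 2 B41HET samples and 1 B41KO sample, with values of 2.16, 3.12 and 3.22 against 2.61, 2.73 and 1.58. The groups overlapped and the interval of the difference reached from -1.57 to 0.51 (limma adjusted p = 0.530). Cacng4 was well above background in 1 B41HET sample and in all 3 B41KO samples. It read 3.33, 0.55 and 2.21 in B41HET and 3.10, 2.77 and 3.38 in B41KO, so that 2 B41HET samples lay below the B41KO samples and 1 lay among them. Its difference of 1.05 had an interval from -0.67 to 2.77 (limma adjusted p = 0.443), which is too wide to give a direction. It was 0.31 without B41HET replicate 2, 1.70 without B41HET replicate 1 and 0.11 after another background correction (normexp), where Cacng6 exceeded it at 0.20. Cacng5 was not well above background in any sample, and its values, 0.67, 2.23 and 0.64 against 0.67, 0.65 and 0.80, give no fold. The fitted difference of -0.47 rested on B41HET replicate 2 and was 0.051 without it.

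**Figure D2:**
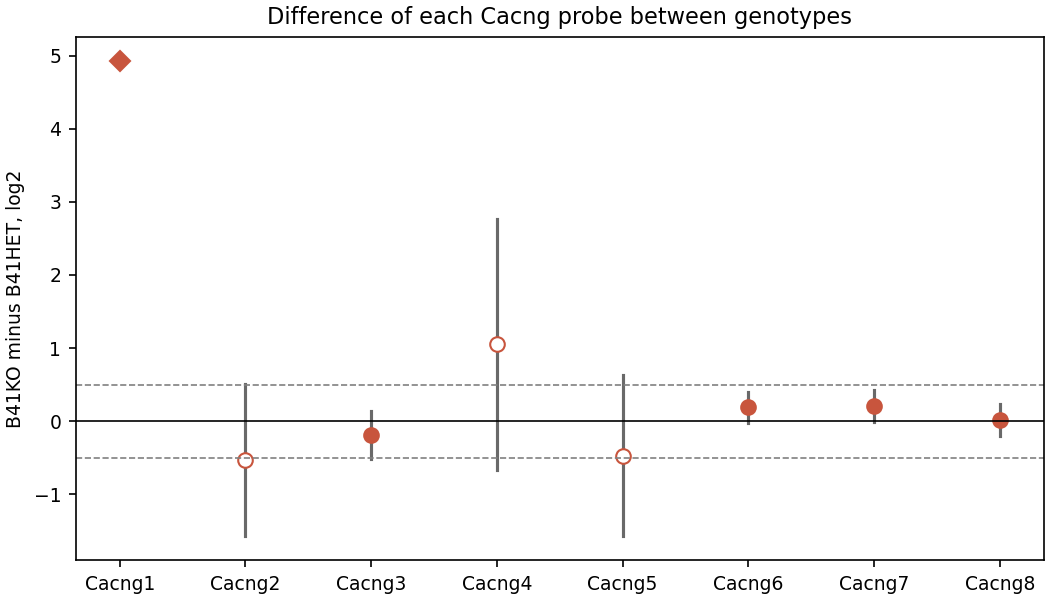
Difference in log2 signal between B41KO and B41HET (vertical axis) for each Cacng gene, with 95% intervals from limma for the 7 paralogues and none for Cacng1 (diamond), which chose the family. Open circles mark genes that were not well above background in all 6 samples, dashed lines mark 0.5 in either direction, and every paralogue interval crosses 0 while Cacng1 stands at 4.93.

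Cacng1 lies on chromosome 11 in a run with Cacng4 and Cacng5, which allows the question whether genes around it moved too. In the annotation of GRCm38.p6, used here for gene order only, Helz lies on its outer side and Prkca follows Cacng5. Of the 10 genes around this run, 5 on each side, 1 was called, beside 5.45% of all named genes. Helz, an RNA helicase gene, read 12.90, 12.94 and 12.79 in B41HET and 12.06, 12.12 and 12.12 in B41KO. All B41KO samples were lower, and the signal fell by 0.78 (SE 0.07, limma adjusted p = 0.00723), opposite to Cacng1. The second Helz probe did not show this, at 0.18 (limma adjusted p = 0.330). Prkca, which encodes protein kinase C alpha, read 9.64, 9.65 and 9.67 in B41HET and 9.22, 9.15 and 9.17 in B41KO. These groups did not overlap either, and its difference of -0.47 passed the adjusted p (0.0179, limma) but stayed under the fold threshold. Without scaling between arrays it was -0.72 and called (limma adjusted p = 0.0282), and the other, dimmer Prkca probe was at -0.72 and not called (limma adjusted p = 0.217). The next genes outward, Psmd12 (-0.029) and Apoh (0.40), were not called. Rgs9, the outermost gene on the Prkca side, was not called by its brightest probe (0.18), but 1 of its dimmer probes, singled out after its values were seen, was called higher. That probe was not well above background in any B41HET sample and was above it in all 3 B41KO samples, at least 1.48-fold higher (limma adjusted p = 0.0410).

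Across all 4 chromosomal positions of the family, 39 of 40 flanking genes were measured, and 2 of them (5.13%) were called, against 5.45% of all named genes. The other called gene was Tarm1, near Cacng6, which was lower in B41KO but was not well above background in any sample, so no fold is given. None of the 10 genes around Cacng2 and none of the 10 around Cacng3 was called by its brightest probe. The largest difference there was that of Csf2rb, the common beta chain of cytokine receptors, near Cacng2. Its brightest probe read 10.71, 10.65 and 16.56 in B41HET, where 1 sample stood far above the others, and 10.49, 10.52 and 10.46 in B41KO (limma adjusted p = 0.512). Of its other probes, 2 were called lower, by differences of -0.67 and -0.82, and are named after their values were seen. Around Cacng3 the gene with the largest fitted difference was Chp2 (limma adjusted p = 0.148), which was not well above background in any sample, so no fold is given.

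**Figure D3:**
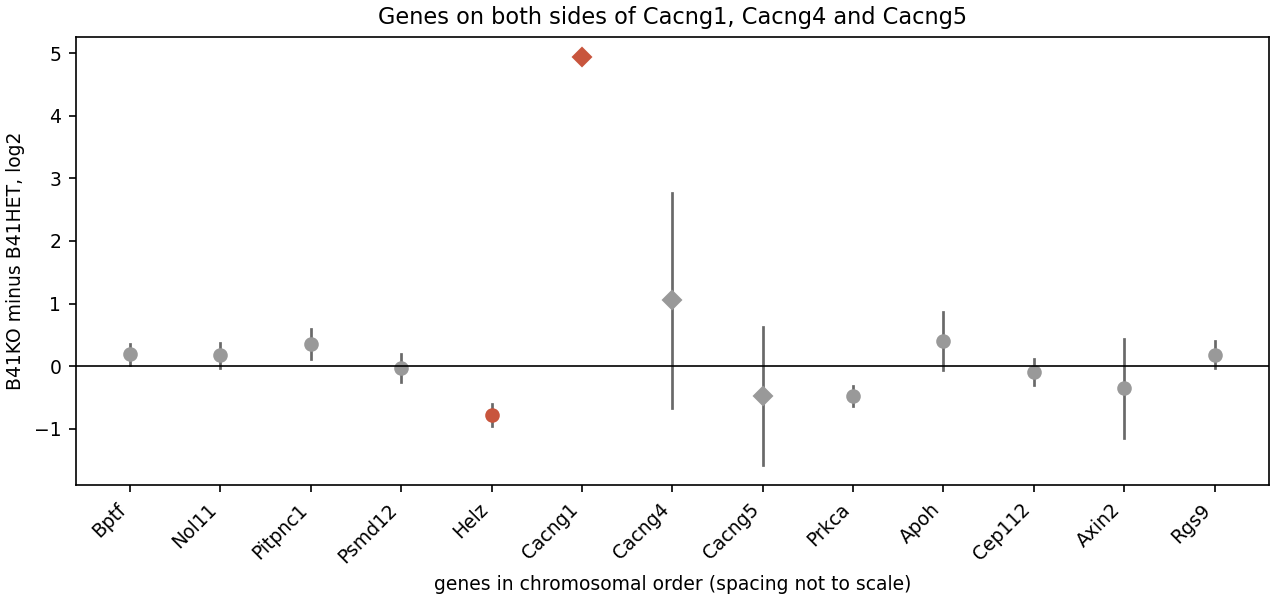
Difference in log2 signal between B41KO and B41HET (vertical axis) for the genes in chromosomal order around Cacng1, Cacng4 and Cacng5 (diamonds), spacing not to scale, with 95% intervals from limma for all but Cacng1. Red marks Cacng1 and the called gene Helz, at 4.93 and -0.78, and the other genes, in grey, lie between -0.47 and 1.05.

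RefSeq promoter windows (300 bases across the start of the gene, GRCm38.p6) were at hand for 6 of the 8 genes, Cacng2, Cacng3, Cacng5, Cacng6, Cacng7 and Cacng8. There was no window for Cacng1 or Cacng4, so Cacng1 itself was not searched. Bhlhe41 is known to bind the E-box, whose preferred letters are CACGTG. These letters, which read the same on both strands, were in none of the windows of the 6 genes, while 7.15% of all 32851 windows of that length held them. At that share, none in so few windows says little. The looser CANNTG was in every window of these genes except that of Cacng7, while 72.3% of all windows held it. A missing match says only that the letters are not in this window.

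The pores that gamma subunits attach to were examined next. None of the 10 alpha1 subunit genes of voltage-gated calcium channels was called, beside 5.45% of all named genes. Their median difference was 0.22, against 0.007 over all named genes. The largest was Cacna1s, the L-type pore of skeletal muscle with which Cacng1 assembles. It read 8.67, 8.66 and 8.74 in B41HET and 9.21, 8.96 and 9.30 in B41KO, all higher in B41KO, with a difference of 0.46 (limma adjusted p = 0.0640). Cacna1d, another L-type pore, had a brightest probe at 0.14 (limma adjusted p = 0.666), whereas a dimmer probe of it read 7.52, 7.50 and 7.47 against 8.32, 8.23 and 8.23 and was called higher by 0.76 (limma adjusted p = 0.00636). This probe was singled out after its values were seen. Of the cytoplasmic beta subunits 0 of 4 were called, the largest being Cacnb2 (-0.26, limma adjusted p = 0.220), and of the alpha2delta subunits 0 of 4, the largest being Cacna2d2 (0.25, limma adjusted p = 0.346).

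In the muscle excitation-contraction coupling list 1 gene of 11 was called, beside 5.45% of all named genes. That gene was Stac3, an adaptor of the skeletal muscle calcium channel. It read 6.95, 6.95 and 7.21 in B41HET and 7.56, 7.74 and 7.79 in B41KO, all higher in B41KO, and rose by 0.66 (SE 0.11, limma adjusted p = 0.0315). Without scaling between arrays it was 0.46 and no longer called (limma adjusted p = 0.113). Triadin (Trdn) was above background in only 1 sample, a B41KO one, and was not called (limma adjusted p = 0.223). In the list of calcium entry and store genes 1 of 22 was called. Atp2a2, the calcium pump of the endoplasmic reticulum, fell by 0.72 by its brightest probe (SE 0.09, limma adjusted p = 0.0148), while its other 2 probes were at -0.21 and 0.015 and were not called.

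On the AMPA receptor side, 1 of 4 pore subunits was called, beside 5.45% of all named genes. Gria4 read 8.46, 8.47 and 8.37 in B41HET and 7.61, 7.84 and 7.91 in B41KO, lower in every B41KO sample, and fell by 0.64 (SE 0.10, limma adjusted p = 0.0259). That was 1 of its 3 probes, the other 2 being near the bottom of the signal range at 0.056 and 0.019. Of 12 further AMPA receptor auxiliary subunits 1 was called. Gsg1l, itself a claudin-like auxiliary subunit and so a relative of the TARPs by both fold and role, read 9.22, 9.22 and 9.32 in B41HET and 9.72, 9.87 and 9.83 in B41KO. It rose by 0.55 (SE 0.08, limma adjusted p = 0.0195), with no overlap of the groups. Without scaling between arrays the difference was 0.31 and not called (limma adjusted p = 0.248). None of the 4 scaffold genes with PDZ domains, which anchor TARPs at synapses, was called by its brightest probe, the largest being Dlg4 (-0.54, limma adjusted p = 0.0678).

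The wider set of 4-pass proteins to which the gamma subunits belong was also covered. Among 13 relatives of PMP22 and the EMP proteins, 3 were called, Gsg1l and 2 genes that were lower. Emp3, a membrane protein found on leukocytes, read 9.87, 9.76 and 9.75 in B41HET and 9.12, 9.06 and 8.87 in B41KO and fell by 0.78 (SE 0.10, limma adjusted p = 0.0136). Perp, a desmosomal protein known as a p53 target, fell by 0.69 (SE 0.14, limma adjusted p = 0.0478), from 5.19, 5.59 and 5.63 to 4.73, 4.73 and 4.89. The groups of both genes did not overlap. Perp was not called after a shift to the 75th percentile (-0.59, limma adjusted p = 0.0878). After normexp its difference was -0.29, under the fold threshold, and it was not called either (limma adjusted p = 0.0223). None of the 23 claudins was called, the largest being Cldn12 (0.60, limma adjusted p = 0.273). Taking the 10 lists as 1 set of 101 genes, 6 (5.94%) were called, 2 higher and 4 lower. The split was 0 higher and 6 lower without scaling between arrays and 3 and 3 after the shift to the 75th percentile. Over all named genes 5.45% were called, 1.44% higher and 4.01% lower. In this set the largest of the 6 differences was 0.78 in size.

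**Figure D4:**
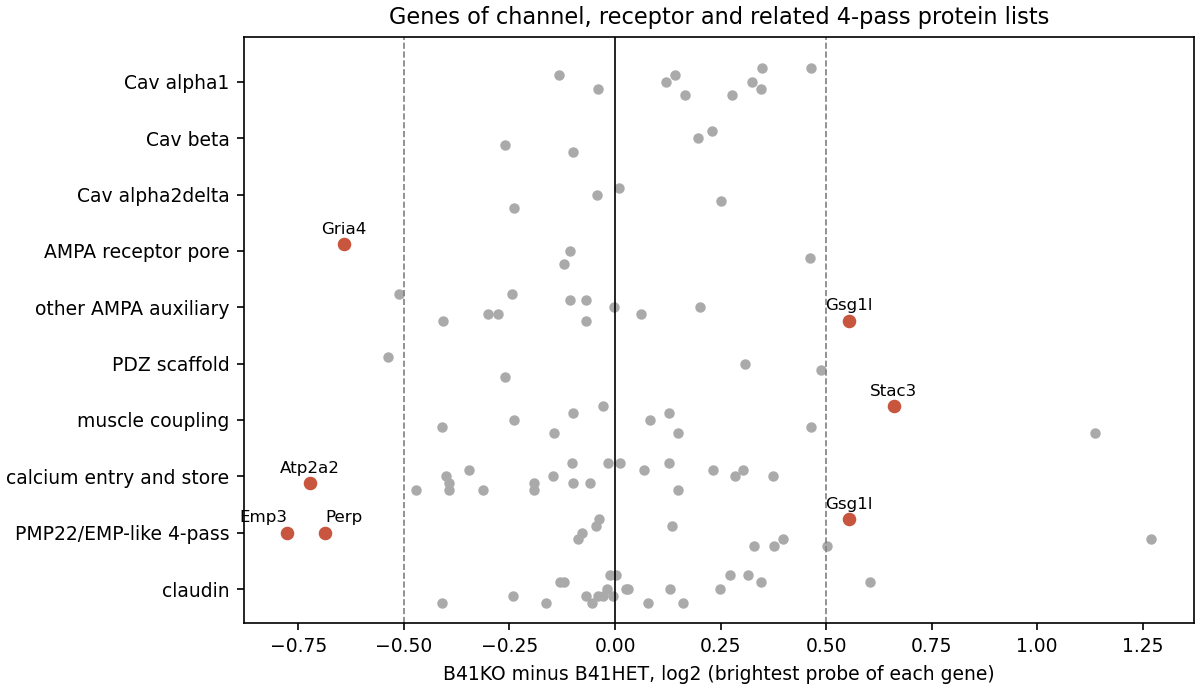
Difference in log2 signal between B41KO and B41HET (horizontal axis, brightest probe of each gene) for the genes of 10 lists, with called genes in red and named, other genes in grey and dashed lines at 0.5 in either direction. Gsg1l stands in 2 lists.

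With 1 sample left out in turn, Helz was called in 6 of 6 fits, Emp3 in 3, Atp2a2 in 2, and Gsg1l, Stac3 and Perp in 1 each. Gria4 was called in 0 of 6, with limma adjusted p from 0.0509 to 0.100. The directions of these 7 genes were the same in all 6 fits, and the differences stayed near their size, such as -0.55 to -0.70 for Gria4 and 0.52 to 0.60 for Gsg1l. Over the whole array the same fits called 792 to 1525 probes in place of 2867. The Cacng1 difference was 4.88 to 4.97 in the same fits. On the slide, 1 B41KO array shared its row with the 3 B41HET arrays, while both remaining B41KO arrays were in a different row. With the row as a block, genotypes are compared only within the shared row, so the fit rests on 1 B41KO array against 3 B41HET arrays. Its differences, -0.82 for Helz and 4.93 for Cacng1, are therefore given as sizes only and do not separate genotype from row.

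Markers of other cell types were measured beside Cacng1. Of 11 skeletal muscle markers, 0 were called and 1, Myh1, was not well above background in any sample. Myh1 had the largest fitted difference of that list (limma adjusted p = 0.0607), for which no fold is given. The summed log2 level of the muscle list was 12.30 to 12.43 in B41HET and 12.45 to 12.66 in B41KO. This sum was mostly the signal of 1 probe, that of Myod1, which averaged 11.98 and 12.20 and was not called (limma adjusted p = 0.191), so it does not stand for the list. Of 8 neutrophil markers 6 were called lower in B41KO, against 4.01% of all named genes, among them Ngp (-3.13) and Ltf (-3.17). The other 2 were not called, Mpo at 0.39 with all B41KO samples higher, and Elane at -0.036. The summed level of the 8 was 14.82 to 15.00 in B41HET and 12.51 to 12.60 in B41KO. Of 6 endothelial markers 2 were called lower, Ly6c1 (-1.79) and Pecam1 (-1.68). Cldn5 (-0.13) and Kdr (-0.009) were not called, and Cdh5 and Flt1 were not well above background in any sample. Of 12 microglial markers 1 was called lower, Fcrls (-0.76). None of 10 neuronal and none of 6 astrocyte markers was called, and 6 of the neuronal ones were not well above background in any sample. The part of these other cells in the Cacng values was not tested.

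Finally, the genes whose pattern over the 6 arrays was most like that of Cacng1 were listed. Among 18379 genes above background on at least 3 arrays, 44 had a Pearson r over 0.99 with the Cacng1 probe. Because the 6 points form 1 cluster per genotype on shared arrays, r mainly measures how tight each cluster is, and it is given as a description. The highest were Ddx39b, an RNA helicase gene (r = 0.999, higher by 0.72), the Fc receptor-like gene Fcrl1 (r = 0.998, higher by 1.13), Plaur, the urokinase receptor gene (r = 0.998, higher by 1.83), Hba-a2, an alpha globin gene with a near-identical copy (r = 0.998, higher by 1.33), and Tlr1, a Toll-like receptor gene (r = 0.998, higher by 0.85). No paralogue was among these 5 genes.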

How the data were processed

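The members, gene lists and tests were chosen with earlier results of these data known. RNA from 6 samples, 3 per genotype, was labelled with Cy3 and hybridised to 1 slide of 1-colour mouse arrays. The authors deposited 1 scanner file per array (Feature Extraction 11.5.1.1) with processed intensity, background-subtracted and detrended within the array but not scaled between arrays. The authors also deposited a table of log2 values whose scale is not stated. It ranked probes as the scanner files do (lowest Spearman correlation 0.999999) and served as an alternative.

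Control spots were left out (59305 of 62976 spots kept), as were 95 to 136 outlier spots per array. Log2 intensity was quantile normalized, as in the study's methods, spots of a probe were averaged to 56605 probes, and 56601 with at least 2 values per group were fitted with genotype alone in limma 3.58.1 (R 4.3.3). The fit was tested on simulated data. Probes were named through their accession with RefSeq's table for GRCm38.p6, 33767 of them, and others stay unnamed. A gene outside the family is represented by its brightest probe. Named are the 8 members, called genes of the lists and of 5 neighbours on each side, the largest difference of a list without calls, Bhlhe41, and the 5 genes most correlated with Cacng1. Alternatives changed the scaling, the background correction, the filter on dim probes, the variance model, the blocks and the samples kept. The result of 1 marker list is not reported here. Figures were drawn with matplotlib.

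The labels give N = 3 mice per genotype and the methods pools of mice. P-values measure the spread between these samples. The number of arrays limits precision.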

Additional observations from a re-analysis of the deposited data

How the results depend on the processing

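No paralogue was called under any alternative, the lowest adjusted p being 0.154 (Cacng6). The Cacng1 difference was 5.13 in the authors' log2 values, 4.59 after normexp background correction, 4.70 without scaling between arrays (an alternative chosen after seeing the data) and 4.88 to 4.97 with 1 sample left out. Some paralogue differences changed sign. Cacng5, at -0.47, became 0.051 without B41HET replicate 2 and spanned -0.75 to 0.051 with 1 sample left out. Cacng8 became -0.026 without B41HET replicate 1 and -0.033 without B41KO replicate 3, spanning -0.033 to 0.070. Without scaling Cacng8 was -0.15 and Cacng6 -0.065. A shift to the 75th percentile moved the median of all probes from 0.015 to 0.13 and the split of calls from 975 higher and 1892 lower to 1297 and 1534; without scaling these were -0.11, 361 and 2297. Normexp gave 1500 called probes against 2867.

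Of the 101 partner genes, 6 were called, 0 to 3 with 1 sample left out and 11 when any probe counted, which added Cacna1d, Dlg2, Dlg4, Atp2b4 and Ryr3. Of the flanking genes 2 were called, 1 to 2 with 1 sample left out. It was 1 under the 75th percentile, under normexp and under the filter for probes above background on at least 3 arrays. It was 3 without scaling, with Prkca added, and 5 with any probe, which added Csf2rb (-0.67 and -0.82), Prpf31 and Rgs9. With slide row as a block the fit rested on 1 B41KO array, so its calls are not counted here. With the replicate number as a block the partner and flanking counts were both 0, and 42 probes were called. Deviations of same-numbered samples correlated at 0.131, -0.00659 and 0.166, and those of different-numbered samples at -0.194 to 0.0841. The numbers were not taken as a pairing, a question these values do not settle. The cause of these changes was not tested. Dim probes (Cacng2, Cacng4, Cacng5) limit what can be said of those genes.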
